A study of Mus musculus with 12 samples.

Results

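Interleukins are secreted proteins through which blood cells and tissues signal to each other, and each acts through receptor chains on the target cell. Most interleukin receptors have no enzyme activity of their own and signal through JAK kinases and STAT factors. The receptors of the interleukin 1 and interleukin 17 families signal through adaptor proteins instead. In myeloid cells, interleukin 1, interleukin 6 and the chains of interleukin 12 are classic products of activated macrophages and neutrophils.

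TET2 sites at these genes were collected here from 2 deposited site lists. The set comprised every protein-coding gene of mouse whose symbol is Il followed by a digit, with Il3ra, Il6ra, Il6st, Il1rl1 and Il17ra set aside. This gave 78 of 21887 protein-coding genes of the GRCm38.p6 annotation, which has the chromosome coordinates of mm10. By role, 37 encode ligands and 36 encode receptors or receptor-like proteins. The other 5 are the antagonists Il1rn and Il1f5, the binding protein Il18bp and the amino acid oxidase genes Il4i1 and Il4i1b. Each TET2 site was assigned to the gene whose start or end lay nearest to the site midpoint, within 100 kb. A gene's territory is all the sequence that lies nearest to it by the same rule. Its expected count is the list's assigned sites spread evenly over the territory of all genes. The rule reads symbols and no measured value, but the 5 genes it sets aside all had sites in both lists.

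TET2 oxidizes 5-methylcytosine in DNA, and chromatin immunoprecipitation sequencing (ChIP-seq) maps where it sits on chromatin. The first culture, called myeloid here, was immortalized by the retroviral transgene MigR1-AML1-ETO, with genotype Tet2fl/fl; AML1-ETO or, in the knockout, Tet2-/-; AML1-ETO. The second, called AML, was an acute myeloid leukemia culture without transgene, of genotype Npm1+/cA; Fl3+/ITD or Npm1+/cA; Fl3+/ITD; Tet2-/-. The medium of every culture held interleukin 3 and interleukin 6 at 10 ng/ml, beside stem cell factor at 50 ng/ml, so ligands of this family were present in all groups. TET2 was precipitated with a rabbit antibody to its N terminus, which gave 2 wild-type and 2 knockout libraries per culture, beside 1 input and 1 IgG library. How many clones or animals stand behind each culture is unknown. The deposited lists hold 7002 AML and 19706 myeloid sites by position only, so no site has a height, a depth or a replicate error. They are 1 list per culture, and a difference between them has no replicate check. Site lists hold no expression, but TET2 sites were listed at 10 of 12 myeloid marker genes in AML cells and at 11 in myeloid cells, where 18.6% and 40% of all genes had one. Of 8 lymphoid marker genes only Cd3d had a site, 1 in each list.

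In AML cells, 24 of the 78 interleukin genes had a TET2 site (30.8%, exact 95% interval 20.8 to 42.2), against 18.6% of all protein-coding genes. In myeloid cells, 35 had a site (44.9%, 33.6 to 56.6), against 40% of all genes. The interval of the AML share lay above the share of all genes, and that of the myeloid share included it. With only sites at least as wide as the median of their list, the AML interval included the share of all genes (15.4%, 8.21 to 25.3, against 11%). No test was made over the list, and neighbouring genes and sites are not independent. The genes held 35 AML sites, or 6.53 per Mb of territory (4.55 to 9.08, exact Poisson interval), against 3.58 per Mb over all genes. They held 82 myeloid sites, or 15.3 per Mb (12.2 to 19.0), against 10.1 per Mb. These intervals cover counting error over sites only.

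The 24 interleukin genes with an AML site were nearly all among those with myeloid sites. The same held over all genes, where 3630 of the 4075 with an AML site also had a myeloid site. Both lists had a site at 22 interleukin genes (28.2%, against 16.6% of all genes). Only Il1f9 and Il20rb had an AML site and no myeloid site (2.56%, against 2.03%). Another 13 had a myeloid site alone (16.7%, against 23.4%), and 41 had none (52.6%, against 57.9%). Il4ra led the myeloid list with 5 sites, and Il1b and Il1rap led the AML list with 3 each. At least 3 myeloid sites were found at 13 genes (16.7%, against 9.02%), and at least 2 AML sites at 9 (11.5%, against 5.83%).

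**Figure D1:**
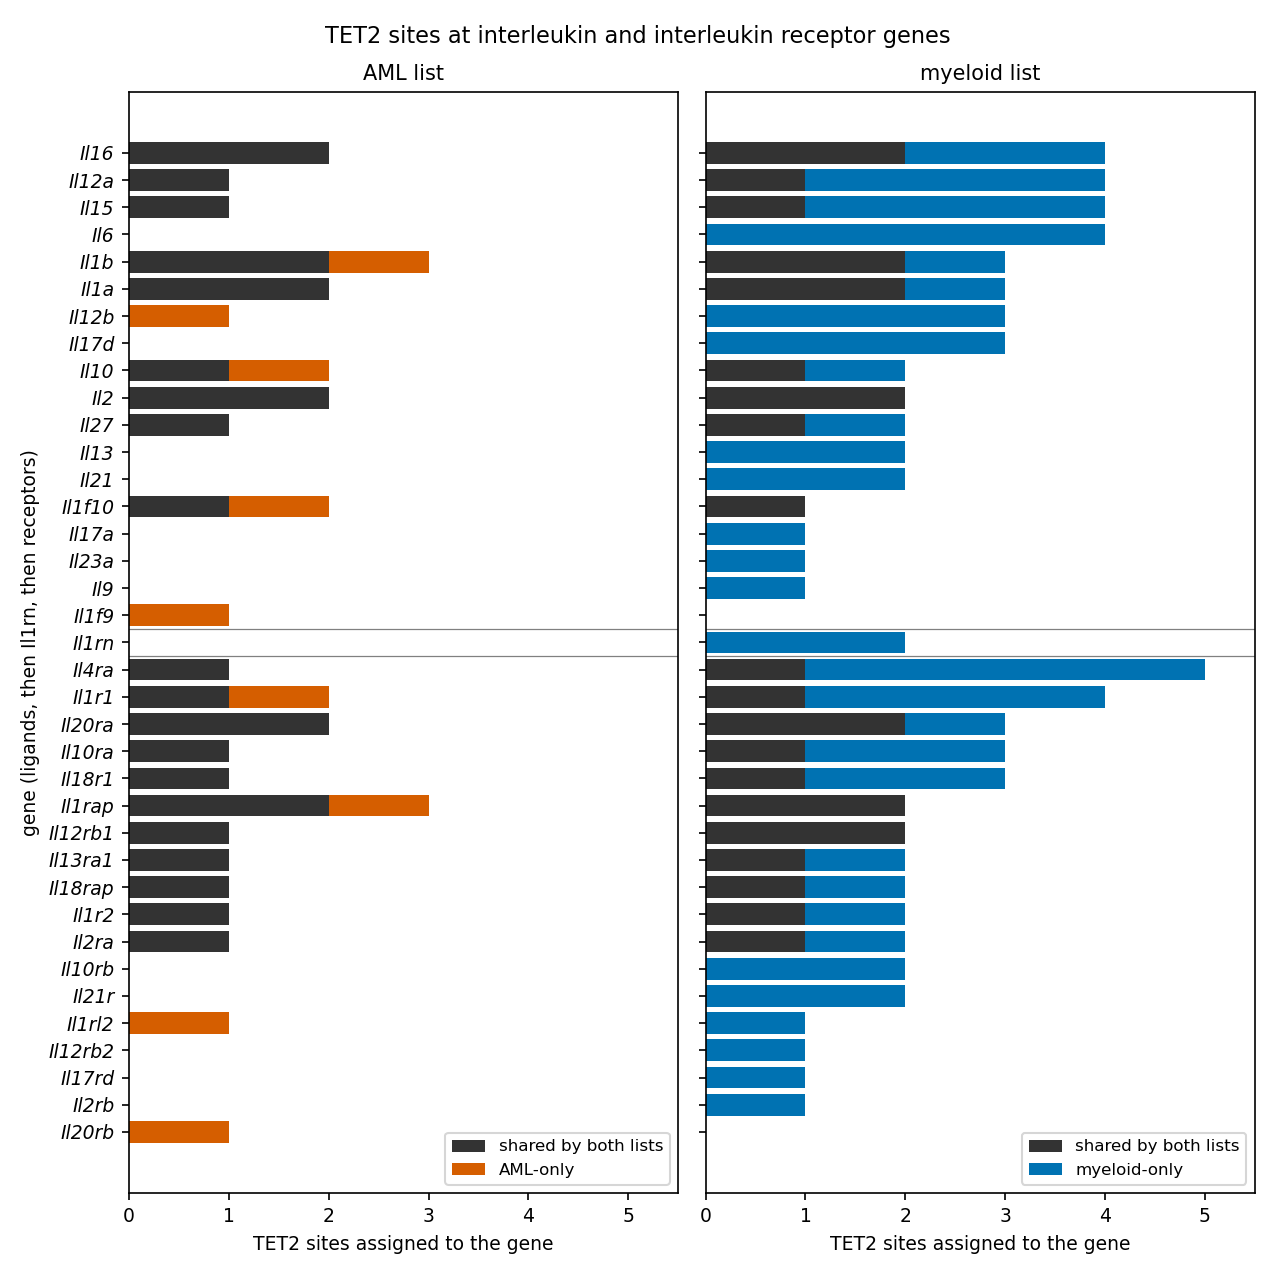
Number of TET2 sites (x axis) assigned to each of the 37 interleukin and interleukin receptor genes with a site (y axis), in the AML list (left) and the myeloid list (right), divided into shared sites and sites of 1 list. Il4ra has the longest myeloid bar, at 5 sites. Il6 has 4 myeloid sites and no AML site.

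Of the 35 AML sites at interleukin genes, 26 overlapped a myeloid site by at least 1 bp (74.3%, 56.7 to 87.5), close to the 72.6% over all assigned AML sites. The shared sites coincided closely, with midpoints a median of 24.5 bp apart (1 to 317 bp), against 26 bp over all genes. The largest offset, 317 bp, was in Il13ra1, whose sites overlapped by 370 bp. Counted by gene, 20 had a shared AML site (25.6%, against 14.6% of all genes). An AML-only site was found at 9 (11.5%, against 6.56%), which were Il1r1, Il1rl2, Il10, Il12b, Il1rap, Il1f9, Il1f10, Il1b and Il20rb. A myeloid-only site was found at 31 (39.7%, against 35%). Of the 82 myeloid sites, 27 were shared (32.9%, 22.9 to 44.2), against 25.8% over all genes. Shared myeloid sites were wider than unshared ones, with medians of 739 and 688 bp. Over all genes the medians were 759 and 696 bp, so this holds beyond interleukin genes.

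Sites at interleukin genes, like those over all genes, lay mostly away from gene ends, meaning the start or end of any protein-coding gene. Over 10 kb from any gene end lay 46.3% of the myeloid sites (35.3 to 57.7), against 44.5% over all genes. In the AML list 62.9% did (44.9 to 78.5), against 56.8%. Only 1 of the 35 AML sites lay within 1 kb of a gene end (2.86%, 0.0723 to 14.9, which includes the 9.99% of all assigned AML sites). In the myeloid list 8 of 82 did (9.76%, 4.31 to 18.3), against 24.8%, and this interval excluded the share over all genes. Intergenic sites made up 51.2% of the myeloid sites (39.9 to 62.4), against 32.6% over all genes, and 54.3% of the AML sites (36.6 to 71.2), against 43.1%. Gene bodies held 39.0% and 42.9%, close to the 42.6% and 46.9% over all genes. Myeloid-only sites at interleukin genes were at gene ends in 7 of 55 cases (12.7%, 5.27 to 24.5), against 29.5% of all myeloid-only sites. By gene, 8 of 78 had a myeloid gene-end site (10.3%, against 18.6%) and 1 an AML gene-end site (1.28%, against 2.74%).

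**Figure D2:**
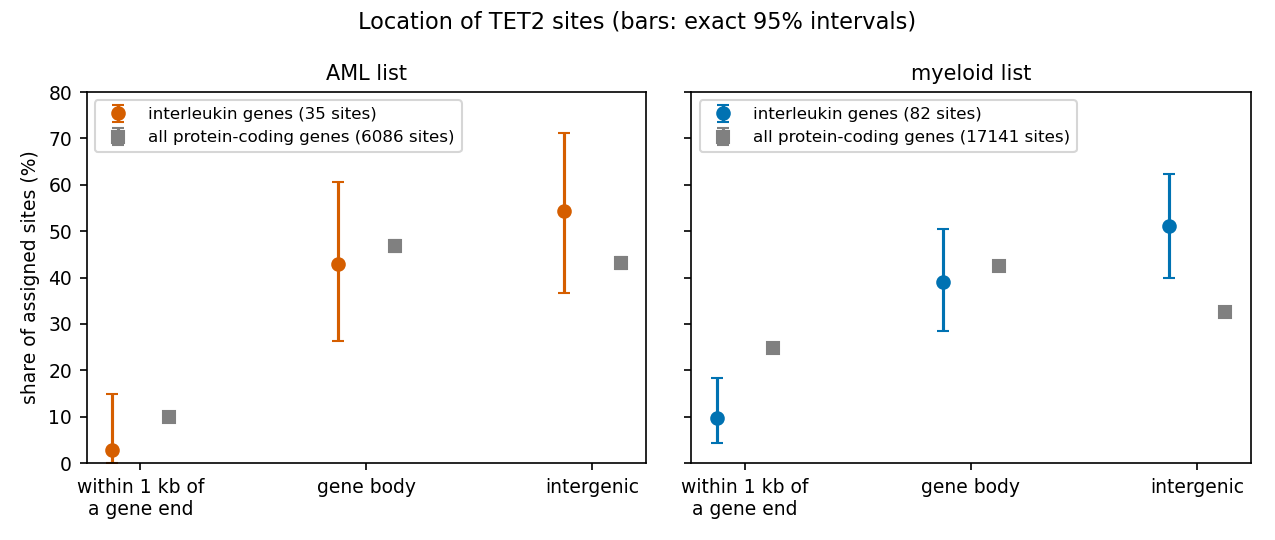
Share of assigned TET2 sites (y axis, percent) within 1 kb of a gene end, in gene bodies and in intergenic sequence (x axis), for interleukin genes and for all protein-coding genes, in each list; points are shares and bars exact 95% intervals. The myeloid gene-end share of the interleukin genes, 9.76%, lies below the 24.8% of all genes.

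The starts of the genes were compared with the sites in more detail, because a start inside a gene is not a gene end by the rule above. RefSeq start windows, from 250 bases before to 50 after an annotated start, were given for 62 of the 78 genes and numbered 76. An AML site met the window of 2 of these genes, Il18rap and Il16 (3.23%, against 1.94% of all genes with a window). A myeloid site met that of 6, Il1r1, Il18rap, Il1rn, Il12rb2, Il4i1b and Il16 (9.68%, against 20.3%). In Il16, Il1rn and Il1r1 the occupied start lay over 1 kb inside the annotated gene. The windows are printed here because they are the interleukin starts that TET2 sites covered. They come from RefSeq (GRCm38.p6), 5′ to 3′ on the strand of the gene, with the start after the 250 leading bases. Capitals mark matches, on either strand, to short motifs of blood cell factors. RUNX factors were searched as TGTGGT, and factors of the ETS family as GAGGAAG. The C/EBP family of granulocyte factors was searched as TTGCNNAA. For AP-1, a target of inflammatory signals, the letters were TGANTCA. The STAT factors that interleukin receptors activate were searched as TTCNNNGAA. For GATA factors the search used AGATAA, and motifs were allowed to overlap. Of the overlapping pair of Il1rn windows, the upstream one is shown.
Il18rap, chr1:40515112-40515411, plus strand: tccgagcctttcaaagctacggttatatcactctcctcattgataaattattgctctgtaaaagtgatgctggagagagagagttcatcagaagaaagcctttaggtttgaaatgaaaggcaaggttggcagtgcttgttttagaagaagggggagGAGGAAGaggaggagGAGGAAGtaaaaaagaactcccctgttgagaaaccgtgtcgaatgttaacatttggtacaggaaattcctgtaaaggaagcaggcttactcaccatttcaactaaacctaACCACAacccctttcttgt
Il16, inner start, chr7:83655446-83655745, minus strand: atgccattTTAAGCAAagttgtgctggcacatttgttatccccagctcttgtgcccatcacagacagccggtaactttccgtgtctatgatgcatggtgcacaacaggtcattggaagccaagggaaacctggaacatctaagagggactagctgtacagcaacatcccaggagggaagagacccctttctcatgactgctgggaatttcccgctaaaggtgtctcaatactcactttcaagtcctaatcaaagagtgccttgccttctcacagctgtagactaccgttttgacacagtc
Il12rb2, chr6:67376139-67376438, minus strand: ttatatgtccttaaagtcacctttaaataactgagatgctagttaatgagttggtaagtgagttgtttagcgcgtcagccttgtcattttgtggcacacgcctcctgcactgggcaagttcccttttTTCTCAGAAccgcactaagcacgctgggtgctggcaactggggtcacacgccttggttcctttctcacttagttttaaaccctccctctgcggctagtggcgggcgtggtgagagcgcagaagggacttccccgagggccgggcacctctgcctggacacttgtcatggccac
Il1r1, inner start, chr1:40224830-40225129, plus strand: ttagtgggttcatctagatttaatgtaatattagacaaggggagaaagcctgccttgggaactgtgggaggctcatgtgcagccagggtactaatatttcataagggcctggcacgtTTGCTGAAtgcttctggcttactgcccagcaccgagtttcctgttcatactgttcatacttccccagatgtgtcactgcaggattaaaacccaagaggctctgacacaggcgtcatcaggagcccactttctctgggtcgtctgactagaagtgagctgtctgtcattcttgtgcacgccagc
Il1rn, inner start, chr2:24345041-24345340, plus strand: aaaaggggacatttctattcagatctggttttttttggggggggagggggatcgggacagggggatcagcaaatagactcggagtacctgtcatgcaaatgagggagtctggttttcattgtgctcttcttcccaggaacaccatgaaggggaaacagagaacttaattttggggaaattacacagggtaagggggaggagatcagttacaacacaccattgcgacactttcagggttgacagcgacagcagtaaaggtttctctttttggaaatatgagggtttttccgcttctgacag
Il4i1b, chr7:44816120-44816419, plus strand: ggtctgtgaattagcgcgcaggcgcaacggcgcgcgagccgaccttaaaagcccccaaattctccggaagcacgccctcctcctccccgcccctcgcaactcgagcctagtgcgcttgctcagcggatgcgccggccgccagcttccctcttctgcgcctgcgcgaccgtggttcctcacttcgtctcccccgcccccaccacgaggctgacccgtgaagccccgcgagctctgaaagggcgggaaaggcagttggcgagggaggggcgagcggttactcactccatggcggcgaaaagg

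Il18rap encodes the accessory chain of the interleukin 18 receptor. Its start was the interleukin start on a gene end that both lists covered, by an AML site at 40515037 to 40515749 and a myeloid site at 40514957 to 40515743. Its window held the ETS letters at bases -94 to -88 and again at -79 to -73 from the start, and the RUNX letters at 31 to 36. Over all 21263 windows of protein-coding genes, 13.6% held the ETS letters and 15% the RUNX letters. Among the 371 windows met by an AML site these shares were 21.8% and 22.4%, and among the 4050 met by a myeloid site 14.6% and 13.6%. Of the 76 interleukin windows, 11.8% held the ETS letters and 26.3% the RUNX letters. The C/EBP letters, found in 10.2% of all windows and 17.1% of the interleukin windows, were in the Il16 window at -242 to -235 and in the Il1r1 window at -133 to -126. The STAT letters (7.69% of all windows and 13.2% of the interleukin windows) were in the Il12rb2 window at -123 to -115. None of the shown windows held the AP-1 letters (6.99% of all windows and 18.4% of the interleukin windows). Nor did any hold the GATA letters (9.65% and 13.2%). The shown windows of Il1rn and Il4i1b held none of these letters. A match of letters is not a binding site.

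Il16 encodes a precursor whose C-terminal part is released as a chemoattractant for CD4+ cells. The gene spans chromosome 7 from 83642819 to 83746028 and has 3 annotated starts. The sites gathered at the innermost one, which lies 90.5 kb inside the gene from its outer end. It had 2 AML sites, both shared, at 0.030 kb downstream and 4.05 kb upstream of that start. It had 4 myeloid sites (exact Poisson interval 1.09 to 10.2; 1.19 expected), of which the unshared pair lay 1.70 kb downstream and 12.8 kb upstream of it. No site was assigned to the outer starts.

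Il1rn and Il1r1 had a myeloid-only site at an inner start. Il1rn encodes the interleukin 1 receptor antagonist, which blocks the receptor without signalling, and it lies on chromosome 2 from 24336860 to 24351491. Its site, at 24344926 to 24345593, covered both starts that lie 8.43 and 8.51 kb inside the gene. The other Il1rn site lay 18.7 kb upstream, and no AML site was assigned to the gene. The Il1r1 site at 40224614 to 40225307 covered a start 2.60 kb inside the gene. Il4i1b encodes a variant of an amino acid oxidase. A myeloid site at 44815408 to 44816638 covered its start but was assigned to Nup62, whose end is nearer, so Il4i1b counts as a gene with no site.

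**Figure D3:**
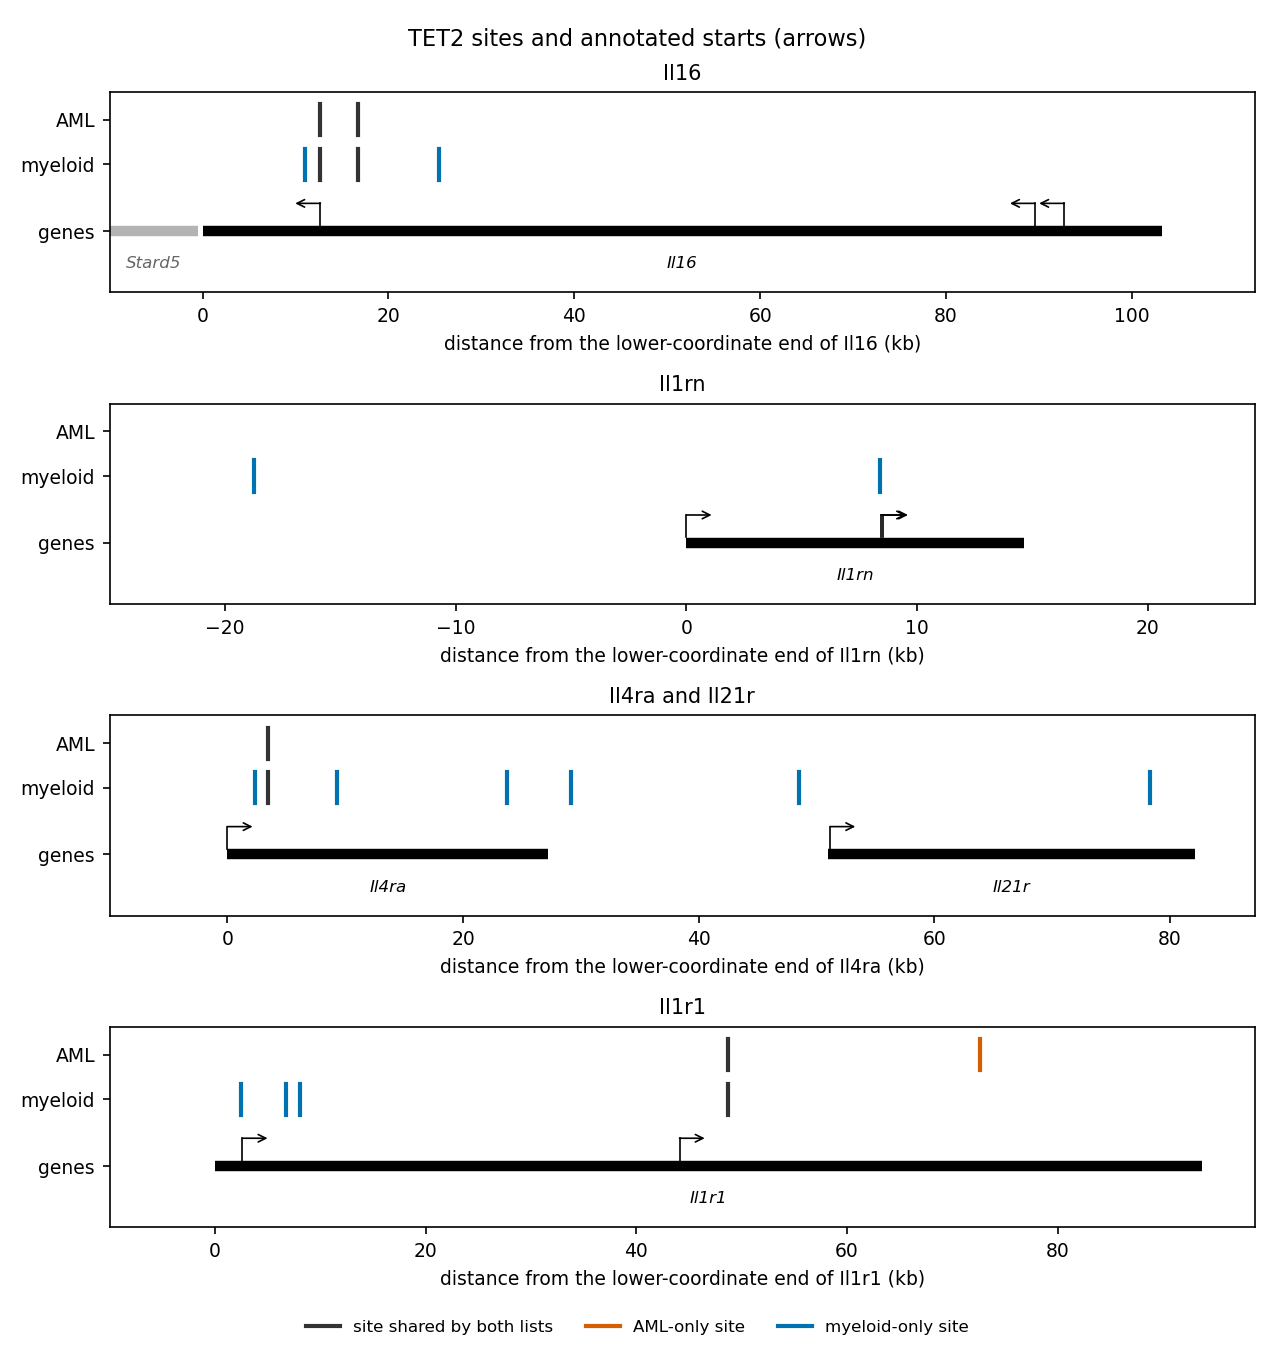
TET2 sites of the AML and myeloid lists (vertical lines at site midpoints, not drawn to width) along Il16, Il1rn, Il4ra with Il21r, and Il1r1, against distance in kb from the lower-coordinate end of the first gene named (x axis). Black bars are the genes and arrows the annotated starts with their direction; at Il16 all sites lie near the innermost start, 90.5 kb from the outer end.

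Among the interleukin 1 ligands, Il1a and Il1b carried most of the sites. Both encode inflammatory cytokines of activated myeloid cells, act on the same receptor and lie next to each other on chromosome 2. The 54.4 kb between them hold no other protein-coding gene. They contained 4 AML sites, all shared, and 5 myeloid sites. The sites nearest Il1a lay at 129313732 to 129314446 and 129315624 to 129316386 in the AML list, 4.12 and 6.03 kb upstream of its start. Each had a myeloid counterpart, offset by 6 and 30 bp. The site nearest Il1b, at 129359954 to 129361148, was 1194 bp wide and merged from 2 deposited AML sites. Its myeloid counterpart was also merged from 2 and was 1227 bp wide, the midpoint lying 4.0 kb beyond the 3′ end of Il1b. The fourth shared site lay 26.3 kb from Il1b, and the myeloid-only site 18.5 kb upstream of Il1a.

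Beyond the start of Il1b the lists differed. An AML-only site lay 42.6 kb upstream and a myeloid-only site 39.4 kb upstream, with midpoints 3.2 kb apart. Il1a thus had 2 AML and 3 myeloid sites (0.14 and 0.39 expected from territory), and Il1b had 3 and 3 (0.28 and 0.78 expected). Their exact Poisson intervals were 0.242 to 7.22 for 2 sites and 0.619 to 8.77 for 3. When noncoding genes also competed for sites, Il1a kept 0 and Il1b 1 in each list, because the small nuclear RNA gene Gm25703 and the pseudogenes Gm18333 and Spcs2-ps were nearer.

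The interleukin 36 group and Il1f10 lie with Il1rn in a cluster on chromosome 2, where sites were fewer. From the start of Il1f8 to the end of Il1rn, 198 kb held 3 AML and 3 myeloid sites, 1 of them shared. Il1f9, which encodes interleukin 36 gamma, had an AML-only site 1.30 kb inside the gene, at 24187412 to 24188131. The nearest myeloid site was 124 kb away. Il1f10, which encodes interleukin 38, had 2 AML sites, at 16.5 and 20.6 kb downstream of its start. The farther was shared, with midpoints 1 bp apart. Il1f5, Il1f6 and Il1f8 had no site, nor did Il18 and Il33, which lie elsewhere.

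The receptors of the interleukin 1 family form a cluster on chromosome 1, and all of its genes carried sites in both lists. From the start of Il1r2 to the end of Il18rap, 467 kb held 8 AML sites, 5 of them shared, and 16 myeloid sites. These counts include Il1rl1, the interleukin 33 receptor, which the rule sets aside and which had 2 AML and 5 myeloid sites. Il1r2, a decoy receptor that binds interleukin 1 without signalling, had a shared site 5.30 kb downstream of its start and a myeloid-only site 2.72 kb upstream. Il1r1, the signalling receptor, had 2 AML sites and 4 myeloid sites, 1 of them shared. Its myeloid-only sites, at 2.48, 6.76 and 8.08 kb from the gene's end, lay in the first part of the gene. Its AML-only site, at 40294786 to 40295470, was 23.9 kb from the nearest myeloid site.

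Il1rl2, the interleukin 36 receptor, had 1 site in each list, and these were 34.0 kb apart. The AML-only site lay 2.51 kb upstream of its start and the myeloid-only site 31.5 kb downstream. Il18r1, the ligand-binding chain for interleukin 18, had a shared site 9.91 kb downstream of its nearest start and 2 further myeloid sites. One of these, merged from 2 deposited sites and 1290 bp wide, lay 0.629 kb beyond the 3′ end of the gene. Il18rap had, besides the shared site on its start, a myeloid-only site 1.2 kb downstream.

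**Figure D4:**
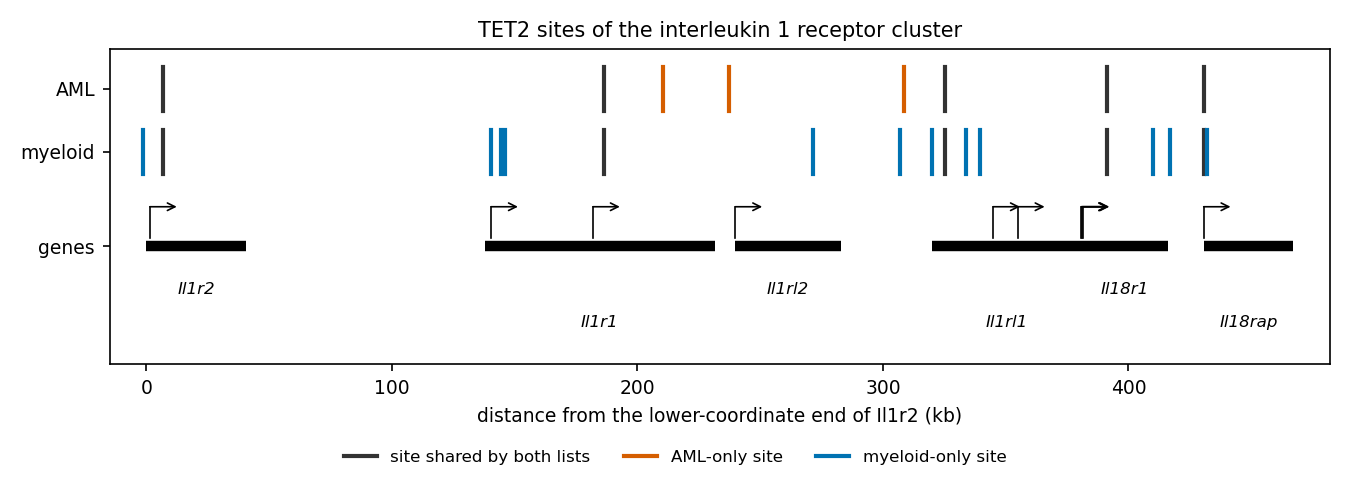
TET2 sites of the AML list (top) and the myeloid list (middle) along the interleukin 1 receptor cluster, against distance from the lower-coordinate end of Il1r2 in kb (x axis); lines mark site midpoints, bars genes and arrows annotated starts. The 8 AML and 16 myeloid sites between the Il1r2 start and the Il18rap end include 5 shared by both lists.

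Il1rap, the co-receptor chain that interleukin 1, interleukin 33 and interleukin 36 receptors share, lies apart on chromosome 16 (26581509 to 26730128). It had 3 AML and 2 myeloid sites, where 0.99 and 2.79 were expected from its wide territory. The shared pair, at 26689481 to 26690326 and 26692480 to 26693173 in the AML list, lay 108 and 111 kb downstream of the start. The AML-only site lay 44.6 kb downstream, with the nearest myeloid site 63.6 kb away. The noncoding gene Gm20319 was nearer to the shared pair, and Il1rap kept 1 AML site and no myeloid site when noncoding genes competed. Il18bp, Il1rapl1 and Il1rapl2 had no site. For the last pair, both receptor-like proteins of neurons, 1.43 and 1.19 AML sites and 4.04 and 3.36 myeloid sites were expected from territory.

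The ligands that act through the common gamma chain, with interleukin 13, had 3 AML and 11 myeloid sites. Il2, the T cell growth factor, had 2 sites in each list, all shared, 27.3 and 47.6 kb upstream of its start. They lie in the 96.8 kb between Il2 and Il21, which hold no other protein-coding gene. Il21 had a close pair of myeloid-only sites in the same interval, 17.3 and 18.5 kb from the gene. The noncoding genes Gm36000 and Gm12532 were nearer to these sites, and neither Il2 nor Il21 kept a site when they competed. Il15, a growth factor of natural killer and memory T cells, had 1 AML site and 4 myeloid sites, all inside the gene. The shared one lay at 82383115 to 82383937 on chromosome 8.

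Il13 had 2 myeloid-only sites, 0.922 and 6.66 kb downstream of its start, and the nearest AML site was 162 and 167 kb from them. Il9 had 1 myeloid-only site, 1190 bp wide, 2.11 kb beyond its end. Il4 and Il7 had none. The block from Il4 to Il3 on chromosome 11, which carries the genes of interleukins 4, 13, 5 and 3 and of GM-CSF, spans 655 kb. It held 5 AML sites, all shared, and 19 myeloid sites, of which only the 2 at Il13 were assigned to an interleukin gene. Il3, Il5 and the interleukin 5 receptor gene Il5ra had none. Il3ra, the receptor chain for interleukin 3 that the rule sets aside, had 1 site in each list, shared and at a gene end.

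Among the receptors of the same group, Il4ra stood first. It encodes the chain that binds interleukin 4 and also serves the interleukin 13 receptor, and it lies on chromosome 7 from 125552271 to 125579474. It had 5 myeloid sites (1.62 to 11.7; 0.70 expected), at 2.33, 3.43, 9.26, 23.7 and 29.2 kb downstream of its start, and 4 of them were inside the gene. The site at 3.43 kb was shared and was the 1 AML site of Il4ra. Il21r, the neighbouring receptor gene, had a myeloid-only site 2.65 kb upstream of its start and another 27.1 kb downstream.

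Il2ra, which encodes the high-affinity chain CD25 of the interleukin 2 receptor, had a shared site 1.29 kb upstream of its start in the AML list and 1.23 kb upstream in the myeloid list. A myeloid-only site lay 5.55 kb upstream. Il13ra1 had a shared site 17.5 kb downstream of its start and a myeloid-only site 11 kb upstream. Il2rb, the chain for interleukins 2 and 15, had 1 myeloid site, 4.43 kb from the gene. Of 13 myeloid sites within 100 kb of its ends, this was the 1 assigned to it. Il2rg, Il7r, Il9r, Il13ra2 and Il15ra had no site.

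Il6 had 4 myeloid sites and no AML site. It encodes the inflammatory cytokine that was also added to the medium. It had no site in the gene or near its start: the sites lay 39.3, 61.5, 62.5 and 64.8 kb upstream on chromosome 5, where 1.17 were expected from territory (interval 1.09 to 10.2). In the AML list 0.42 sites were expected at Il6, and 23.4% of all genes had a myeloid site and no AML site. The AML list had no site within 100 kb of either end of Il6. The nearest AML site was 46.4 to 71.8 kb from the myeloid sites, on the far side from the gene. The noncoding gene A230098N10Rik was nearer to each of these sites, and Il6 kept none when it competed. Il11, Il31 and their receptor genes Il11ra1, Il11ra2 and Il31ra had no site.

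Genes of the interleukin 12 family carried sites in 6 of 8 cases, with 4 AML and 13 myeloid sites, where 57.9% of all genes had no site in either list. Il12a, which encodes the p35 chain of interleukin 12, had a shared site 13.4 kb upstream of its start, 805 bp wide in AML cells and 980 bp wide in myeloid cells. It had 3 further myeloid sites, 1.11, 15.2 and 17.8 kb downstream of a start. Il12b, which encodes the p40 chain common to interleukins 12 and 23, had no shared site. Its AML-only site lay 50.3 kb upstream, and its myeloid-only sites lay 22 and 9.81 kb upstream and 17.5 kb downstream of the start. The AML site was 28.3 kb from the nearest myeloid one.

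Il23a, the p19 chain of interleukin 23, had 1 myeloid site, 0.413 kb from the gene, in a territory that gave 0.063 expected. Il27, the p28 chain of interleukin 27, had a shared site 11.8 kb from the gene and a myeloid-only site at 1.63 kb. Il12rb1, the receptor chain for interleukins 12 and 23, had a shared site inside the gene. A second myeloid site, 1.63 kb from the gene, overlapped an AML site that was assigned to Mast3, so 2 myeloid sites but 1 AML site count as shared. Il12rb2, the other interleukin 12 receptor chain, had 1 myeloid-only site, on its start. Il23r and Il27ra had none.

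**Figure D5:**
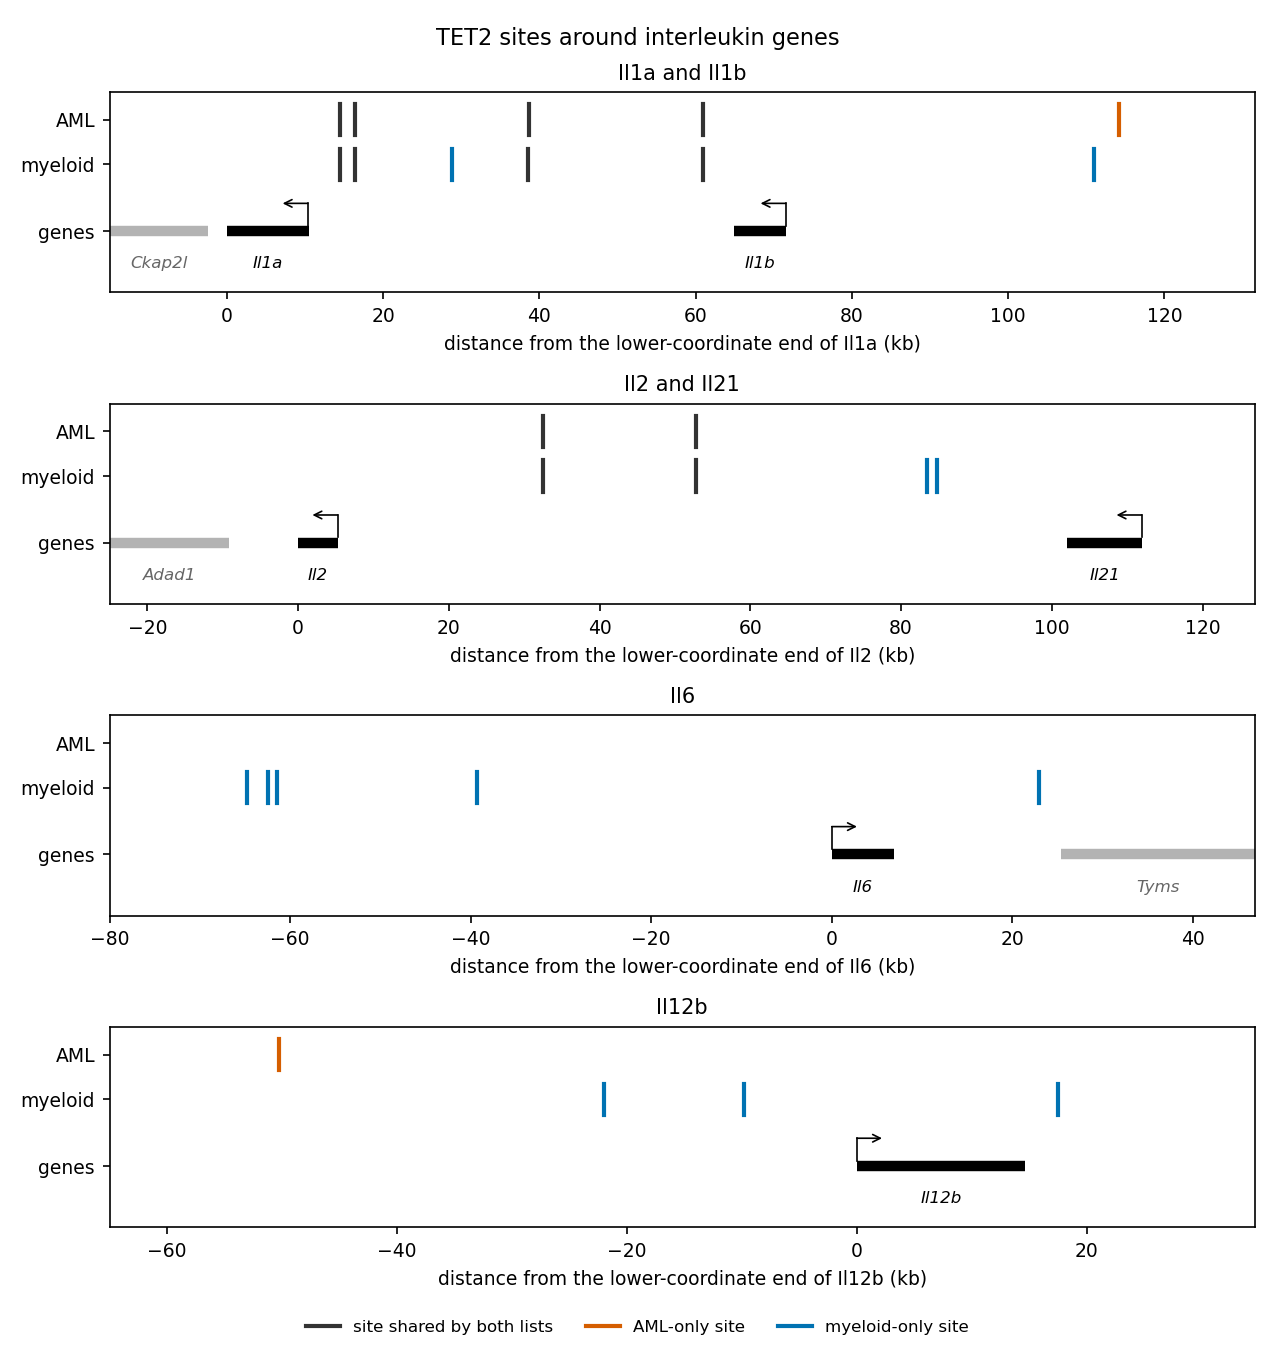
TET2 sites of the AML and myeloid lists (vertical lines at site midpoints) around Il1a and Il1b, Il2 and Il21, Il6, and Il12b, against distance from the lower-coordinate end of the first gene named, in kb (x axis); bars are protein-coding genes, interleukin genes in black, and arrows annotated starts. Between Il1a and Il1b 4 sites are shared, between Il2 and Il21 2 are shared, and at Il6 and Il12b no site is shared. The myeloid site beside Tyms was assigned to Tyms, not to Il6.

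In the interleukin 10 family, AML sites were found at Il10, Il10ra, Il20ra and Il20rb, and Il20ra and Il10ra had the most myeloid sites, 3 each. Il10 encodes an anti-inflammatory cytokine and lies on chromosome 1 from 131019845 to 131024970. It had a shared site close to 1 end (1.12 kb in the AML list, 1.03 kb in the myeloid list). On the other side, 4.27 kb from the gene, it had an AML-only site at 131015220 to 131015940. A myeloid-only site lay 13.4 kb away. The neighbouring genes Il19, Il20 and Il24 had none, nor did Il22.

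Il10ra, the ligand-binding chain, had a shared site 5.25 kb from the gene and 2 myeloid-only sites, 1 of them 0.038 kb from an end of the gene. Il10rb, the second chain, had 2 myeloid-only sites, 1 of them 0.107 kb from an end. Il20ra had 2 shared sites, 20.6 kb upstream and 35.3 kb downstream of its start, and another myeloid site 53.1 kb downstream. Its partner gene Il20rb had 1 AML-only site, 22.3 kb from the gene, and the nearest myeloid site was 208 kb away. Il22ra1 and Il22ra2 had no site.

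Among the interleukin 17 genes that the rule keeps, 2 of 6 ligand genes and 1 of 4 receptor genes had a site, all myeloid-only. None had an AML site, where 18.6% of all genes had one. Il17ra, the main receptor chain of the family, is set aside by the rule and had 5 AML sites, 4 of them shared, and 4 myeloid sites. Il17d had 3, at 2.47, 13.1 and 19.0 kb downstream of its start, where 0.25 were expected (interval 0.619 to 8.77). The nearest AML site was at least 169 kb from any of them. Il17a had 1, 23.8 kb downstream of its start between Il17a and Il17f, and the receptor gene Il17rd had 1, 6.29 kb downstream of its start. Il17f, Il17b, Il17c, Il25, Il17rb, Il17rc and Il17re had none. Il34, a ligand of the CSF1 receptor, and Il4i1 also had no site.

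Ligands and receptors had like shares of occupied genes. A myeloid site was found at 17 of 37 ligand genes (45.9%, 29.5 to 63.1) and 17 of 36 receptor genes (47.2%, 30.4 to 64.5). An AML site was found at 11 ligand genes (29.7%, 15.9 to 47.0) and 13 receptor genes (36.1%, 20.8 to 53.8). Per Mb of territory the ligand genes had 19.5 myeloid sites and the receptor genes 12.2, without an interval for either. Of the 3.12 Mb of receptor territory, 400 and 333 kb belonged to Il1rapl1 and Il1rapl2, which had no site. Their part in the lower value of the receptor genes was not tested. Without noncoding competitors, 18 AML sites lay at ligand genes, of which 13 were shared, and 17 at receptor genes, of which 13 were shared. These groups were not tested against each other.

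Of 26 partner genes of interleukin signalling (kinases, STAT factors, adaptors, inhibitors and shared chains), 21 had a myeloid site and 12 an AML site, where 40% and 18.6% of all genes had one. They held 62 myeloid and 14 AML sites. The adaptor kinase gene Irak2 had 8 myeloid sites and 1 AML site, and Irak3, an inhibitor of interleukin 1 signalling, had 4 and 1. Jak2 had 4 and 1, and Stat5b had 4 and 2. Ebi3, the partner chain of interleukin 27, had 1 site in each list, at a gene end. Jak3, Tyk2, Stat2, Irak1 and Traf6 had none. The 5 genes that the rule sets aside held 11 AML and 16 myeloid sites.

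The difference between the cultures was tested per gene on unshared sites, with Fisher's exact test over all genes and Benjamini-Hochberg adjustment. No interleukin gene had the 5 unshared sites that the test required, so none was tested. Over all genes, 3 of 344 were called (0.872%). With a minimum of 3 unshared sites, 7 interleukin genes entered (Il1r1, Il12b, Il17d, Il12a, Il6, Il4ra and Il15). None was called, and none had an unadjusted Fisher exact p under 0.05 (lowest 0.389, for Il1r1 and Il12b; lowest adjusted p = 1), where 0.207% of all genes were called. Over all genes most unshared sites were myeloid-only, so a gene with myeloid-only sites alone followed the common pattern. Il17d, Il12a, Il6, Il4ra and Il15 were such genes, with 3 or 4 unshared sites each. At these counts the test could not give them a low p, so their result does not bear on a difference between the lists. Il1r1 and Il12b had 1 AML-only site each among 4 unshared sites, too few to decide the question.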

How the data were processed

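TET2 ChIP-seq was made in 12 libraries of 2 mouse cultures. The authors deposited 1 list of sites per culture, whose rows, per the file headers, give genome positions (chromosome, start, end) and no score or value per library. Per the labels' protocols, cells were crosslinked with 2 mM disuccinimidyl glutarate and 1% formaldehyde and sheared to 200 to 500 bp. The submitters' processing notes name Trimmomatic, Bowtie2, MACS2 and mm10. Not given in the sources used here are their versions, the thresholds, and whether replicates were pooled or how knockout, IgG and input libraries entered. Starts may count from 0 or 1, so printed positions can be off by 1 bp.

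Within each list, overlapping sites were joined (6895 AML and 18822 myeloid sites). A lone AML site on an unplaced contig was dropped, and 6086 and 17141 sites lay within 100 kb of a gene end. Shares have exact Clopper-Pearson and counts exact Poisson intervals, at 95%. The steps were tested on simulated sites (Python 3.11.15, NumPy 2.4.6, pandas 2.3.3, SciPy 1.17.1).

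The genes and lists were chosen with earlier results of these data known. Named with their values were genes with an AML site, with at least 3 myeloid sites or with a site within 1 kb of an end, and genes in loci of neighbouring interleukin genes; others are named by family. Il9, Il2rb and Il17rd are outside this rule and were added after their values were seen. Alternatives changed the assignment, the overlap, the gene-end distance and the site width.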

Additional observations from a re-analysis of the deposited data

How the results depend on the processing

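The share of interleukin genes with an AML site was above that of all genes in 6 of 7 alternatives, and its exact interval lay wholly above in 5. With sites within 20 kb of a gene end it was 24.4% against 13.5%, within 500 kb 32.1% against 19.7%, and with noncoding genes competing 23.1% against 12.7% (23 AML sites). With gene-end sites alone it was below, with 1 AML site at 1 gene and 8 myeloid sites at 8 genes (10.3% against 18.6% in the myeloid list). When a site counted for every gene within 100 kb, 54 genes had 134 AML sites (69.2% against 51.7%) and 67 had 320 myeloid sites (85.9% against 75.7%). Under this rule the interval of the myeloid share (76.2 to 92.7) lay above the share of all genes. In the other 6 alternatives it included that share. With sites at least as wide as the median of their list, 12 genes had 14 AML sites (15.4% against 11%, which the interval of 8.21 to 25.3 included), and there were 36 myeloid sites. Within 2 kb of a gene end lay 19.5% of myeloid sites at interleukin genes, against 31.0% over all genes. With noncoding genes competing, 6 genes lost every AML site (Il1r2, Il1a, Il2, Il27, Il20rb and Il13ra1). In the myeloid list 6 genes lost every site (Il1rl2, Il1rap, Il1a, Il2, Il21 and Il6). Other overlap rules gave shared shares of 71.4% to 75% for the AML sites. No paired analysis was possible because the lists hold no value per library, and for the same reason no replicate could be left out. The lists give no score, so no stricter threshold could be set, and the depth behind a site is unknown.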

Other observations

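The annotated starts of interleukin genes were poor in CpG, the dinucleotide that TET2 acts on when it is methylated. Their 76 start windows held a median of 4 CpG, against 13 over all 21263 windows of protein-coding genes, and 23 in the 4050 windows met by a myeloid site. Classes of CpG content were set after these values were seen. Of the interleukin windows, 76.3% held 0 to 7 CpG, against 38.5% of all windows. In this class a myeloid site met 5 of 58 interleukin windows (8.62%), against 4.55% of all windows, and an AML site met 2 (3.45%), against 1.38%. The 5 windows include the overlapping pair of Il1rn windows, which were met by the same site. With 16 or more CpG, a myeloid site met 1 of 10 interleukin windows, that of Il4i1b, against 32.9% of all windows. The windows of the 2 starts met by AML sites, Il18rap and the inner Il16 start, held 4 CpG each, and that of Il4i1b held 34. The part of CpG content in the location of the sites was not tested.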
